A study of Mus musculus with 6 samples.

Results

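The genes described are the Toll-like receptors Tlr1, Tlr2, Tlr3, Tlr4, Tlr6, Tlr7, Tlr8, Tlr9 and Tlr13 and the co-receptor Cd14, 10 of the 19973 genes in the deposited table. Their rows were found by symbol, after Ensembl identifiers had been matched to mouse gene symbols. The table holds messenger RNA levels of peritoneal macrophages from old and young mice. Old mice were 18 months of age and young mice 2 months, and each age has 3 libraries. All animals were male C57BL/6 mice, a common inbred strain. All had received 200 µg of zymosan A, a yeast cell wall preparation that Tlr2 recognises, by injection into the peritoneal cavity, so neither group is without this stimulus. Cells were lavaged after 72 hours, kept overnight in culture medium that contained L-cell media, washed to remove what had not attached, and held with vehicle (PBS) for 6 hours. Cultures given resolvin D2, the lipid named in the series title, were not analysed here. According to the design note, each group had 3 mice and every mouse's RNA was run in triplicate; whether a library is a mouse or such a repeat is not said. The p-values therefore reflect only library-to-library spread, part of which may be technical.

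Toll-like receptors are membrane proteins that bind conserved microbial molecules and switch on inflammatory genes. Tlr1, Tlr2, Tlr4 and Tlr6 sit in the cell surface membrane, where Tlr2 pairs with Tlr1 or Tlr6 to bind lipoproteins, and Tlr4 binds lipopolysaccharide with the help of Cd14. Tlr3, Tlr7, Tlr8, Tlr9 and Tlr13 sit in endosomes and bind nucleic acids, and they need a chaperone and proteolytic cleavage to signal. Adaptor proteins then carry the signal to kinases, to NF-kappaB, AP-1 and interferon regulatory factors, and to cytokine genes.

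Values are normalized counts, that is reads scaled with 1 size factor for each library, and read totals were 8163016 to 13007604 per library. Differences are old minus young on the log2(normalized count + 1) scale from limma, with p-values adjusted by Benjamini-Hochberg over 11795 genes with a mean of at least 10 and a threshold of 0.05. Folds are ratios of mean normalized counts. In this fit 35.5% of all genes passed, 17.9% higher and 17.6% lower in old, and the median difference over all genes was 0.00014. The ages separated along the first principal component (71.5% of the variance), and along the second (18.2%) both libraries numbered 3 stood apart from the others of their age, at opposite ends. All 10 macrophage markers were above the mean needed for the test, with summed levels of 346759 to 432262 in old and 277505 to 351973 in young libraries. Transcripts of other cells differed too. Summed B cell markers were 1469 to 3138 in old and 57.9 to 64.4 in young libraries, and summed mast cell markers were 578 to 648 in old and 54.3 to 79.4 in young libraries. In bulk RNA, fewer cells of a type and less RNA per cell cannot be told apart.

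Of the 10 genes, 9 had the mean needed for the test, and 6 of these passed. Tlr1, Tlr4, Tlr6, Tlr13 and Cd14 were higher in old macrophages and Tlr2 was lower, with adjusted p-values between 1.52e-06 and 0.00405. Tlr3, Tlr7 and Tlr8 did not pass, and Tlr9 was under the mean needed. Among the 4 surface receptors 3 were higher and 1 was lower, with a median difference of 0.58. Of the 5 endosomal receptors 4 were tested, 1 was higher and none was lower, with a median difference of 0.11. The same 6 genes had no overlap between old and young libraries, 5 above and 1 below, whereas 47.5% of all tested genes had no overlap, 24.0% above and 23.6% below. The calls of these 6 genes held in each of the 17 alternative analyses, among them edgeR and DESeq2 on recovered whole reads, which called 36.7% and 31.7% of all genes.

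**Figure D1:**
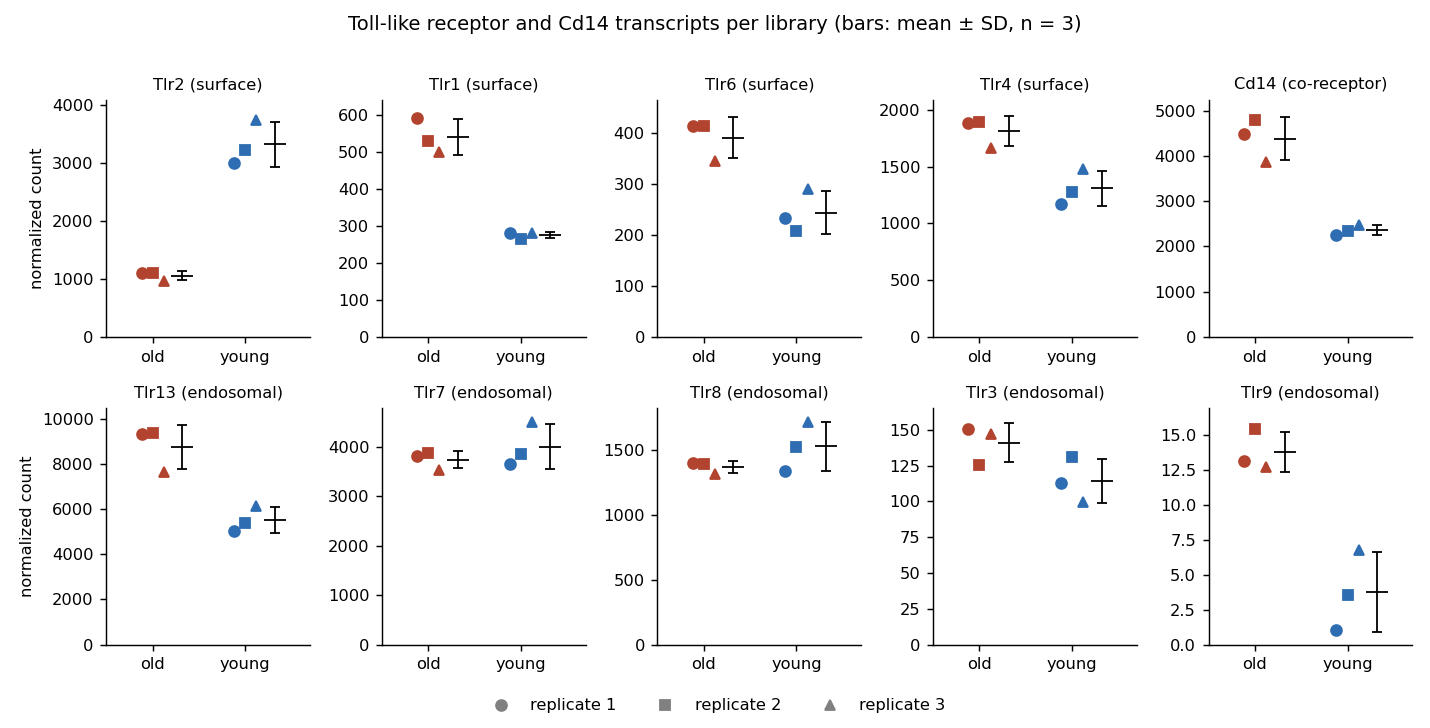
Normalized counts of the 10 genes in each library (y axis from 0, 1 panel a gene), with old libraries left of young ones and bars for the mean ± SD of 3 libraries. Tlr2 was lower in every old library than in any young one, Tlr1, Tlr4, Tlr6, Tlr13 and Cd14 were higher, and Tlr3, Tlr7 and Tlr8 overlapped. Tlr9 lay below 16 normalized counts in every library.

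Tlr2, the shared partner of the lipoprotein receptors, was the only gene of the set to fall in old macrophages, apart from Tlr7 under quantile normalization. It had 1109, 1095 and 972 normalized counts in the old libraries, against 2997, 3219 and 3746 in the young libraries. The lowest young library was well above the highest old one. Old libraries averaged 1059 ± 75.6 and young libraries 3321 ± 385 (SD, n = 3 each). The difference was -1.64 ± 0.09 (SE, limma adjusted p = 1.52e-06), with a mean 3.14-fold higher in young. Leaving out each library in turn gave -1.72 to -1.55. Tlr2 lies on chromosome 3 from 83836272 to 83841767 on the minus strand (GENCODE M21, GRCm38).

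Both partners of Tlr2 moved the other way. Tlr1, which pairs with Tlr2 to bind triacylated lipoproteins, had 593, 530 and 499 normalized counts in old libraries, against 280, 265 and 281 in young libraries. Its ages were clearly separated, and its young libraries varied least of all members in relative terms, with a coefficient of variation of 3.27%. The difference was 0.97 ± 0.09 (SE, limma adjusted p = 2.79e-05), 1.96-fold higher in old. Tlr6, which pairs with Tlr2 to bind diacylated lipoproteins and zymosan, had 412, 414 and 344 normalized counts in old libraries, against 233, 207 and 289 in young libraries. The closest pair, both of libraries numbered 3, still did not cross. Its difference was 0.69 ± 0.13 (SE, limma adjusted p = 0.00307), 1.60-fold higher in old.

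Tlr1 (chromosome 5, 64924679 to 64933563, minus strand) and Tlr6 (chromosome 5, 64952031 to 64960097, minus strand) are neighbours, 18467 bases apart. Part of their sequence is identical. Of the 50-base windows in their transcripts 454 were shared, 13.6% of those of Tlr1 and 12.3% of those of Tlr6. Reads from the shared stretch could be split between the genes by the authors' counting, so their separate values are uncertain to that extent. As a pair, both remain opposite in sign to Tlr2.

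Tlr4, the lipopolysaccharide receptor (chromosome 4, 66827584 to 66930284, plus strand), differed least among the members that passed. It had 1887, 1895 and 1665 normalized counts in old libraries, against 1171, 1275 and 1479 in young libraries. All old libraries were above all young ones, by a narrow gap between the libraries numbered 3. The difference was 0.48 ± 0.10 (SE, limma adjusted p = 0.00405), 1.39-fold higher in old, and the adjusted p lay at or below 0.0330 in the 17 alternatives. Cd14, which hands lipopolysaccharide to the receptor and also serves Tlr2 (chromosome 18, 36725067 to 36726798, minus strand), had 4479, 4794 and 3869 normalized counts in old libraries, against 2254, 2347 and 2470 in young libraries. Here the ages were wide apart. Its difference was 0.89 ± 0.09 (SE, limma adjusted p = 5.28e-05), 1.86-fold higher in old. Cd14 is itself 1 of the 10 macrophage markers, of which 6 were higher, 2 lower and 2 not passing, with a median difference of 0.35. Over all tested genes 17.9% were higher and 17.6% lower. The marker median was 0.10 under quantile normalization. Without old replicate 1, old replicate 2, young replicate 1 or young replicate 2, 4 markers were higher. The count was 7 without old replicate 3 or young replicate 3, and 8 with DESeq2 or without both libraries numbered 3. The part of the macrophage markers in the Cd14 result was not tested.

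Tlr13, which binds bacterial ribosomal RNA and has no human counterpart, was the only one of the 4 tested endosomal receptors that rose in old macrophages. It had 9325, 9363 and 7643 normalized counts in old libraries, against 5043, 5394 and 6133 in young libraries. The old libraries were all higher, and the libraries numbered 3 again stood nearest to the other age. The difference was 0.67 ± 0.11 (SE, limma adjusted p = 0.00102), 1.59-fold higher in old. Under quantile normalization it was smaller, at 0.41 (limma adjusted p = 0.000802). Tlr13 lies on chromosome X from 106143204 to 106160493 on the plus strand.

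Tlr7 and Tlr8, receptors for single-stranded RNA, lie 40599 bases apart on chromosome X, Tlr7 from 167304929 to 167330558 and Tlr8 from 167242696 to 167264329, both on the minus strand. Tlr7 had 3812, 3874 and 3540 normalized counts in old libraries, against 3653, 3855 and 4513 in young libraries. Tlr8 had 1397, 1392 and 1315 in old libraries, against 1339, 1525 and 1718 in young libraries. Both genes overlapped between the ages, with young replicate 3 the highest library for each. The difference was -0.09 for Tlr7 (95% interval -0.29 to 0.11, limma adjusted p = 0.438) and -0.15 for Tlr8 (95% interval -0.36 to 0.05, limma adjusted p = 0.227). These intervals are not adjusted for the number of genes. Under quantile normalization Tlr7 passed as lower in old, with -0.25 and an adjusted p of 0.0105, and without both libraries numbered 3 its sign turned to 0.034 (adjusted p = 0.590).

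Tlr3, the receptor for double-stranded RNA, was the least abundant tested member (chromosome 8, 45395665 to 45411080, minus strand). It had 151, 126 and 147 normalized counts in old libraries, against 113, 131 and 99.7 in young libraries. Old replicate 2 lay below young replicate 2, so the ages overlapped. The difference was 0.31 ± 0.14 (SE, 95% interval 0.00027 to 0.61, limma adjusted p = 0.110) and missed the threshold. Tlr3 shares 381 exonic bases with Gm45542 on the other strand, and reads of both cannot be told apart if strand was not used in counting.

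Tlr9, the receptor for unmethylated CpG DNA (chromosome 9, 106222598 to 106226883, plus strand), was near the lower end of detection. Recovered whole reads were 11, 18 and 10 in old libraries, against 1, 4 and 8 in young libraries, which gave 13.1, 15.4 and 12.7 normalized counts in old and 1.01, 3.51 and 6.76 in young libraries. Every old library was above every young one, but on few reads. In the fit without a filter on low values the difference was 1.83 ± 0.54 (SE, limma adjusted p = 0.0297). Over all analyses that could include it the adjusted p was 0.00570 to 0.121, and the call was lost without old replicate 1 (0.0919), old replicate 2 (0.121), young replicate 1 (0.105) or young replicate 2 (0.0888). B cells, which use Tlr9, had all 11 tested markers higher in old libraries, with Cr2 at 0 in each young library; their part in the Tlr9 result was not tested. Over all tested genes 17.9% were higher and 17.6% lower. Of the 6 tested markers of plasmacytoid dendritic cells, which also use Tlr9, 2 were higher (Ly6d and Spib) and 3 lower (Irf8, Tcf4 and Runx2). Siglech, another of that list, averaged 0.285 in old and 0.292 in young libraries, and the part of these cells was not tested either. The mouse receptors outside the set were lower still, with 3, 6 and 4 reads of Tlr5 in old and 3, 1 and 3 in young libraries, and 4 reads or fewer of Tlr11 and Tlr12 in any library.

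**Figure D2:**
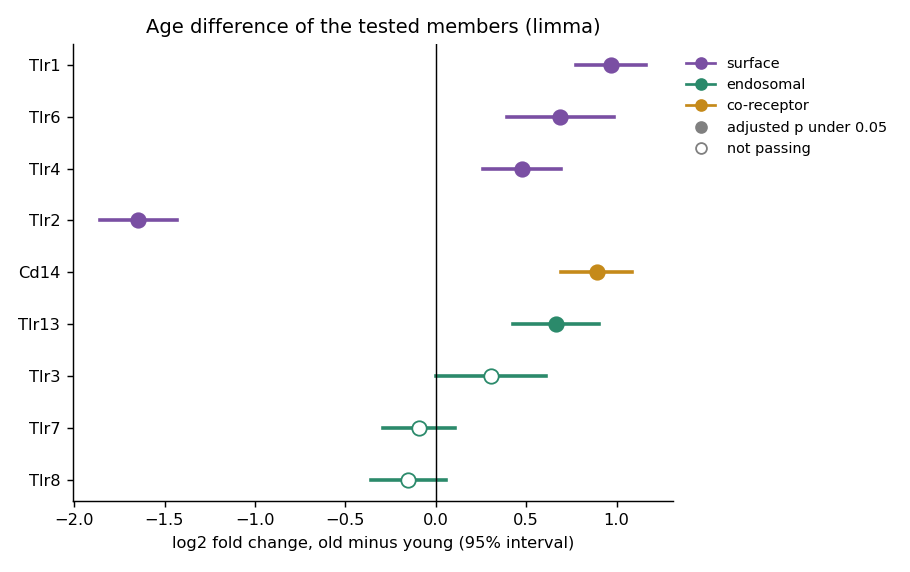
Difference in log2(normalized count + 1), old minus young, of the 9 tested genes (x axis; 1 gene a row), with points for the limma estimate and lines for its 95% interval. Filled points passed at an adjusted p under 0.05; Tlr2 alone lies left of 0 among them, at -1.64, and Tlr1 lies farthest right, at 0.97.

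Dividing by exonic length allows levels to be compared between genes. In old libraries Cd14 (2529 normalized counts per kilobase) was followed by Tlr13 (2039), Tlr7 (917), Tlr8 (381), Tlr2 (351), Tlr4 (327), Tlr1 (162), Tlr6 (105), Tlr3 (27.1) and Tlr9 (3.95). In young libraries Cd14 (1361 normalized counts per kilobase) was followed by Tlr13 (1283), Tlr2 (1102), Tlr7 (982), Tlr8 (426), Tlr4 (235), Tlr1 (82.3), Tlr6 (65.2), Tlr3 (22.0) and Tlr9 (1.08). Tlr2 thus stood behind Tlr7 and Tlr8 in old and ahead of both in young libraries, while the order of the other genes was the same. Neighbours in the order were not all separable: in old libraries the ranges of Tlr8 and Tlr2 and of Tlr2 and Tlr4 overlapped, and in young libraries those of Cd14 and Tlr13, of Tlr13 and Tlr2, and of Tlr2 and Tlr7.

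The receptor mix of each library followed from these levels. Summed over the 9 receptors, the per-kilobase level was 4313 ± 353 in old and 4199 ± 456 in young libraries, which differed by less than the spread between libraries. The 4 surface receptors made up 21.6% to 22.1% of that sum in old libraries, against 35.1% to 35.5% in young libraries, with no overlap and very little spread. The gap was -13.5 percentage points per kilobase and -10.2 percentage points without division by length. Tlr2 alone held 8.15% of the sum in old and 26.2% in young libraries. Tlr13 held 47.2% in old and 30.6% in young libraries, and Tlr7 held 21.3% in old and 23.4% in young libraries. The shares of a library add to a fixed whole, so they do not move independently of each other.

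**Figure D3:**
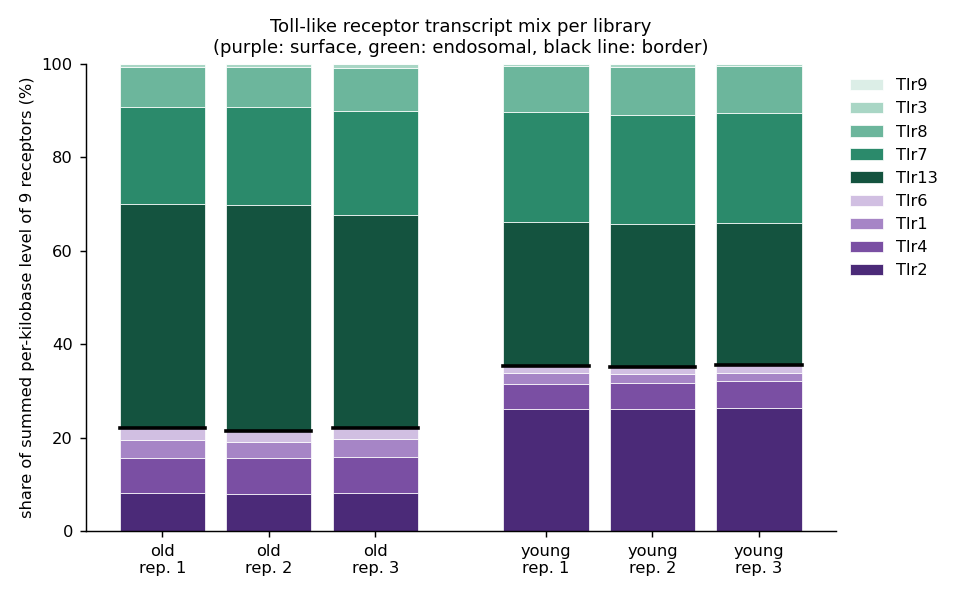
Share of each receptor in the summed per-kilobase level of 9 receptors (y axis, percent), 1 bar a library, with old libraries left of young ones. Purple parts under the black line are surface receptors, 21.9% on average in old and 35.4% in young libraries, and green parts are endosomal receptors. Among the purple parts Tlr2 was smaller in old libraries, and Tlr1, Tlr4 and Tlr6 were larger.

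Ratios between partners within a library do not depend on its size factor, apart from the pseudocount. The per-kilobase ratio of Tlr1 to Tlr2 was 0.481, 0.436 and 0.463 in old libraries, against 0.0841, 0.0741 and 0.0677 in young libraries. For Tlr6 to Tlr2 it was 0.301, 0.306 and 0.287 in old libraries, against 0.0630, 0.0520 and 0.0624 in young libraries. Both ratios were several times higher in every old library, with differences of 2.61 and 2.33 on the log2 scale. The ratio of Tlr1 to Tlr6 averaged 1.55 ± 0.105 in old and 1.28 ± 0.177 in young libraries, and old replicate 2 and young replicate 2 both rounded to 1.43. Cd14 to Tlr4 averaged 7.73 ± 0.345 in old and 5.81 ± 0.417 in young libraries, without overlap. Tlr8 to Tlr7 averaged 0.416 ± 0.007 in old and 0.434 ± 0.017 in young libraries and overlapped. In a 2-sided exact permutation test the first 4 ratios gave p = 0.1, the smallest that 3 against 3 libraries allow, and Tlr8 to Tlr7 gave p = 0.2; over the 5 ratios the adjusted values were 0.125 and 0.2, so none passed.

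**Figure D4:**
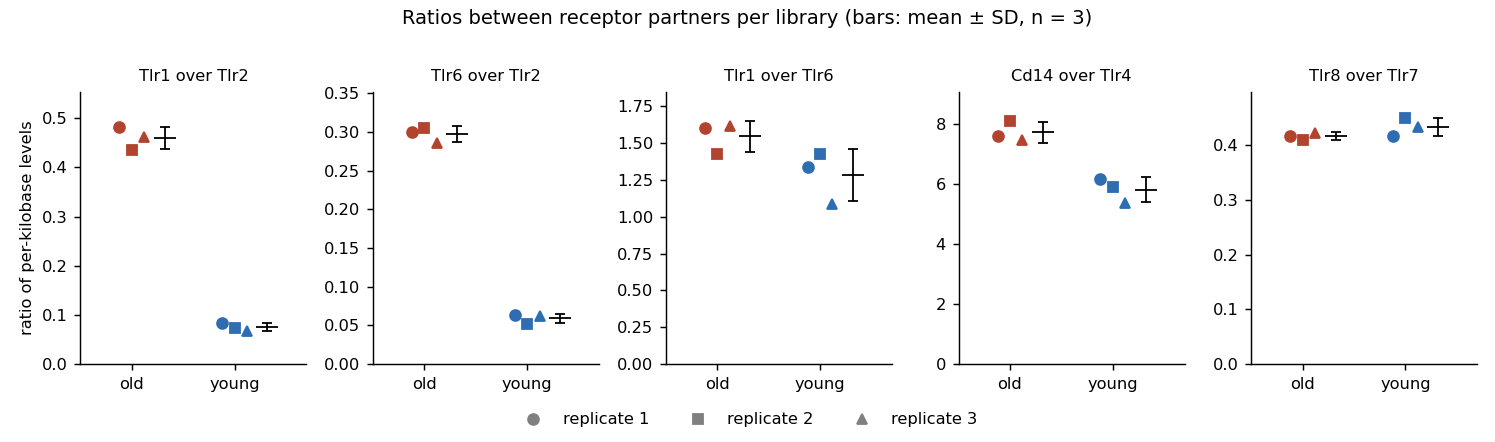
Ratio of per-kilobase levels within each library for 5 pairs (y axis from 0, 1 panel a pair), with old libraries left of young ones and bars for the mean ± SD of 3 libraries. Tlr1 over Tlr2 averaged 0.460 in old and 0.0753 in young libraries, and Tlr8 over Tlr7 averaged 0.416 in old and 0.434 in young libraries.

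Promoter windows of the gene that fell and of 3 that rose are shown so that the sequence beside each start can be read next to the values. RefSeq entries on GRCm38.p6, from 250 bases before to 50 after a start, were matched for 7 of the 10 genes. Capitals mark matches on either strand to GGANTTTCC and GGGAATTCC (forms of the NF-kappaB site), GAAANNGAA (part of the interferon response element), TGANTCA (AP-1) or GAGGAA (the core bound by PU.1, a macrophage factor). The form GGGAATTCC was added after the Tlr2 sequence had been seen. Windows are chr3:83841559-83841858 (minus strand) for Tlr2, chr5:64933509-64933808 (minus strand) for Tlr1, chr5:64959999-64960298 (minus strand) for Tlr6 and chrX:106143025-106143324 (plus strand) for Tlr13.
Tlr2: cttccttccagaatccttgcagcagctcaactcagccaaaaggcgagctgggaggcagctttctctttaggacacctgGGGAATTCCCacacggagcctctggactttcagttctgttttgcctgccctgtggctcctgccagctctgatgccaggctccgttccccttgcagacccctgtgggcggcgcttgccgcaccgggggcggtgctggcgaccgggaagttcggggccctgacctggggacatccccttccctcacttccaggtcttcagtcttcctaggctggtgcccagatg
Tlr1: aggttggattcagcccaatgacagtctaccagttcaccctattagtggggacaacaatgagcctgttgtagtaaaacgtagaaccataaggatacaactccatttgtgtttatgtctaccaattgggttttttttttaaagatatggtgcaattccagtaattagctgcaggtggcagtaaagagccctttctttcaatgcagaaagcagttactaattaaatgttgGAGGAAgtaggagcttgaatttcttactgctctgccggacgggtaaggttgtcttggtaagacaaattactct
Tlr6: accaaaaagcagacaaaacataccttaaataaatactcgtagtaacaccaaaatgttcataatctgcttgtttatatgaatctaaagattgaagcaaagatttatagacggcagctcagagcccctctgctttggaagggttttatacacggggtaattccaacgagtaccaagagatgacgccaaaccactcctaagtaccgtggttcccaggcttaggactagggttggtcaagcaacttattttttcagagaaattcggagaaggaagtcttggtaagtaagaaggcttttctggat
Tlr13: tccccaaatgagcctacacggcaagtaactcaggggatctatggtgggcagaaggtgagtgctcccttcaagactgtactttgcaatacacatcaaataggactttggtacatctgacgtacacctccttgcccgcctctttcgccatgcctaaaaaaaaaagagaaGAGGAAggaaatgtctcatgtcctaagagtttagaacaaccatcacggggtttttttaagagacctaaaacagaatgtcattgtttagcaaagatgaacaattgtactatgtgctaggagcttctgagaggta

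The Tlr2 window held GGGAATTCCC from -172 to -163 relative to its start. This stretch reads the same on both strands, so it is a single site that matches GGGAATTCC on each strand. Of 32851 promoter windows 0.225% held this form and 1.25% held GGANTTTCC. The GENCODE start of Tlr2 lies 159 bases upstream of the RefSeq start. Tlr1 held GAGGAA from -23 to -18 and Tlr13 from -83 to -78, a form in 28.3% of all windows. The Tlr6 window shown held none of the 5 forms, but the window of its other RefSeq start (chr5:64959117-64959416, minus strand) held 2 overlapping matches to GAAANNGAA, from -115 to -101. TGANTCA, in 7.81% of all windows, and GAAANNGAA, in 8.56%, matched none of the 4 windows printed. Matched windows that are not printed did hold forms chosen beforehand. The Tlr3 window held GGANTTTCC from -210 to -202, although Tlr3 did not pass. The Tlr8 window held GAAANNGAA and GAGGAA, and the Tlr9 window held TGANTCA and GAGGAA. The Tlr2 window was richest in G and C, at 62.0%, beside 40.3% for Tlr1, 40.3% for Tlr6 and 43.3% for Tlr13. A match is a description of the letters and not evidence of binding.

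Profiles over the 6 libraries, centred on each gene's mean, were compared with 9235 genes by the root mean square difference in log2 units. Tlr7 and Tlr8 were closest to each other among the members (0.045), followed by Tlr6 and Tlr13 (0.095) and by Cd14 and Tlr1 (0.0999). Tlr2 was far from every other member, with Tlr8 nearest at 0.747. Outside the set, its nearest genes were Cd109 (0.068), Oip5 (0.069) and Cks1b (0.082). Cd109 averaged 126 ± 9.10 normalized counts in old libraries and 374 ± 49.7 in young libraries (SD, n = 3 each). Oip5 averaged 40.9 in old and 129 in young libraries, and Cks1b averaged 114 in old and 389 in young libraries. For Tlr13 the nearest were Spp1 (0.021), Atp6v0e (0.024) and Itm2b (0.024), and for Cd14 Rilpl2 (0.021), Cd63 (0.025) and Emp1 (0.030). For Tlr4 they were Cept1 (0.029), Clec4d (0.030) and Gabarap (0.031), for Tlr1 Ralgds (0.056), Bmt2 (0.061) and Crybg1 (0.061), and for Tlr6 Etfrf1 (0.042), Fzd1 (0.063) and Atraid (0.069). The members that did not pass had Ccdc115, Dnajc3 and Slc35e1 nearest to Tlr7, Dhdds, Pcx and Lin7c nearest to Tlr8, and Smpd2, Ganc and Otud3 nearest to Tlr3, at 0.020 to 0.068.

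Helpers of the surface receptors passed the test in both directions, mostly as higher in old. Of 9 listed co-receptors, Cd14 included, 8 were tested, 6 were higher and 2 were lower, with a median difference of 0.67, while 17.9% of all tested genes were higher and 17.6% lower. Cd36, which helps Tlr2 with Tlr6, had 35953, 36798 and 29190 normalized counts in old libraries, against 13761, 15318 and 17626 in young libraries. All old libraries were higher (1.13, limma adjusted p = 0.000129). Itgb2, the beta chain of complement receptor 3, rose by 0.89 (limma adjusted p = 0.000142). Ly96, the lipopolysaccharide-binding partner of Tlr4, rose by 0.80 (limma adjusted p = 0.00213). The B cell and macrophage receptor Cd180 rose by 0.53 (limma adjusted p = 0.000121), whereas its partner Ly86 differed by -0.97 (limma adjusted p = 0.000589) and was lower in each old library. B cells, whose markers were higher in old libraries, also carry both; the part of this was not tested. Hmgb1, a nuclear protein that can act as a Tlr4 ligand, differed by -0.74 (limma adjusted p = 0.000750). Ly96, Ly86 and Hmgb1 lie outside the naming rule and were chosen after their values were seen.

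Among 16 chaperones, trafficking factors and proteases of endosomal receptors, 7 were higher, 2 lower and 7 not passing, with a median difference of 0.24, while 17.9% of all tested genes were higher and 17.6% lower. Ctsk, Ctss and Ctsl, lysosomal cathepsins linked to the cleavage of endosomal receptors, rose by 2.40, 1.29 and 1.02 (limma adjusted p = 2.71e-07, 0.000116 and 0.000418), and Rab7b, a late endosomal GTPase, rose by 1.00 (limma adjusted p = 1.40e-05). Unc93b1, the chaperone that endosomal receptors need to leave the endoplasmic reticulum, had 4018, 4749 and 4011 normalized counts in old libraries, against 3173, 3115 and 3288 in young libraries. It was higher in each old library, by 0.41 (limma adjusted p = 0.00360). Hsp90b1, which folds most Toll-like receptors, differed by -0.39 (limma adjusted p = 0.00878), and the folding partner Cnpy3 overlapped between the ages (0.11, limma adjusted p = 0.286). The last 3 genes were chosen after their values were seen. The median was 0.11 under quantile normalization. Without both libraries numbered 3 the counts were 11 higher and 3 lower, and 1 was lower without old replicate 1, old replicate 2, young replicate 2 or young replicate 3.

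Of 6 adaptors 5 were tested, 2 were higher, none was lower and 3 did not pass, with a median difference of 0.15 (17.9% higher and 17.6% lower over all tested genes). Pik3ap1, which links receptors to phosphoinositide 3-kinase in macrophages and B cells, had 3222, 3344 and 3203 normalized counts in old libraries, against 1897, 1872 and 1794 in young libraries. The ages were far apart (0.81, limma adjusted p = 9.01e-06). Myd88, the adaptor of nearly all these receptors, had 688, 768 and 630 normalized counts in old libraries, against 540, 532 and 582 in young libraries. Its difference of 0.33 passed (limma adjusted p = 0.0162) but was lost without old replicate 1, old replicate 2, young replicate 1 or young replicate 2. Tirap, Ticam1 and Ticam2 did not pass.

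Of 19 kinases and ligases 18 were tested, 4 were higher and 5 lower, with a median difference of 0.02; over all tested genes 17.9% were higher and 17.6% lower, so these shares are near the background. Ikbkg, the regulatory subunit of the IkappaB kinase, rose by 0.65 (limma adjusted p = 4.24e-05). Tbk1, a kinase upstream of interferon regulatory factors, and Irak1, a kinase recruited by Myd88, rose by 0.26 each (limma adjusted p = 0.00994 and 0.0119), and the ligase Peli1 differed by -0.35 (limma adjusted p = 0.00963). These counts depended on single libraries, with 1 higher and none lower without young replicate 2 (Tbk1, Irak1 and Peli1 lost), 4 and 7 without old replicate 3, 3 and 1 without old replicate 1, 4 and 1 without old replicate 2, 4 and 3 without young replicate 1, 4 and 2 without young replicate 3, and 5 and 8 without both libraries numbered 3. With all libraries kept, 1 kinase or ligase was lower after centring on the median, and 6 were lower with edgeR. This lower count was 2 with DESeq2, with no filter on low values, or without a variance trend. It stayed at 5 under quantile normalization, with the filter at 50 and with either pseudocount. Of 18 inhibitors 14 were tested, 4 were higher and 2 lower, with a median difference of 0.09, against the same background of 17.9% and 17.6%. Tnfaip3, a deubiquitinase that ends NF-kappaB signalling, rose by 0.46 (limma adjusted p = 0.000417), and its partner Tnip1 differed by -0.55 (limma adjusted p = 0.000247). Trafd1 rose by 0.41 (limma adjusted p = 0.00436). Il1rl1, a receptor that mast cells also carry, rose by 2.28 (limma adjusted p = 0.000328); 5 of the 6 tested mast cell markers were higher in old libraries as well, and their part was not tested.

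Of 14 transcription factors downstream of the receptors 6 were higher and 3 lower, with a median difference of 0.12, beside 17.9% and 17.6% over all tested genes. Irf7, which drives interferon genes after Tlr7 and Tlr9 signals, had 799, 883 and 853 normalized counts in old libraries, against 154, 161 and 176 in young libraries. The old libraries were several times higher (2.36, limma adjusted p = 1.06e-07). Irf8, a macrophage and dendritic cell factor, had 1291, 1427 and 1403 in old libraries, against 2596, 2491 and 2434 in young libraries, lower in each old one (-0.87, limma adjusted p = 1.06e-05). Fos rose by 1.21 and Atf3 by 0.96 (limma adjusted p = 3.04e-05 and 6.03e-06). Of the NF-kappaB genes, Nfkb1 and Rel were lower (-0.26 and -0.57, limma adjusted p = 0.00762 and 0.00153), Nfkb1 not with the replicate block. Nfkb2, Rela and Relb did not pass. The NF-kappaB genes were named after their values were seen. Of 18 target genes 15 were in the table and 12 were tested. Of these 6 were higher, none was lower and 6 did not pass, with a median difference of 0.49 and the same background shares. Ccl2, the most abundant target gene and named after its values were seen, did not pass (-0.08, limma adjusted p = 0.687). It averaged 3655 in old and 3846 in young libraries. Tnf had 1275, 1212 and 1076 normalized counts in old libraries, against 861, 839 and 901 in young libraries and was higher in each old one (0.45, limma adjusted p = 0.00183). Ccl3 rose by 0.88, Il1a by 1.54 and Ccl5 by 2.53 (limma adjusted p = 0.000466, 0.00116 and 0.00184), the last from a mean of 21.4 in old and 2.98 in young libraries. Ctsl, Cd180, Hsp90b1, Hmgb1, Myd88, Tirap, Ikbkg, Trafd1, Irf7, Nfkb2 and Il1a share exonic bases with a gene on the other strand. So do the cell type markers Runx2 and Gata6. The values of all these genes are uncertain to that extent, because no source used here says whether counting used strand.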

How the data were processed

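RNA of attached peritoneal macrophages was made into libraries with the TruSeq protocol, per the labels. The deposited values are signal: read counts scaled by the authors with 1 size factor for each library. DESeq2 and mm10 appear in the submitters' processing notes. Not given in the sources used here are the aligner, counter, annotation and strand setting. Each column holds whole multiples of a single step, and dividing by it gave whole reads for 100% of values within 0.01. Size factors were 0.787 to 1.18. Symbols were found for 19917 of 19973 identifiers, and positions and lengths are from GENCODE M21 (GRCm38).

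The main test was limma 3.58.1 in R 4.3.3 with a variance trend on log2(normalized count + 1), which understates the change of low genes. A mean of at least 10 left 11795 genes and set aside 8178. Because the unit is a normalized count, edgeR 4.0.16 (quasi-likelihood) and DESeq2 1.42.0 ran on recovered reads as alternatives only, and called 36.7% and 31.7% of genes. The script was first tested on simulated data. Named genes were the members, other mouse Toll-like receptors, up to 4 passing members per pathway list by smallest adjusted p, and the 3 nearest profiles of each tested member among genes with a mean of at least 50. The members and lists were chosen with earlier results of these data known. No pair of libraries agreed within sampling noise, so none was merged as a library deposited more than once. Replicates 1 and 2 came nearest, with a median squared difference 1.49 times that expected from sampling noise in old and 1.76 times in young. Pairs of the same age that held a library numbered 3 had 3.50 to 5.69 times that noise. These values do not show that libraries come from separate mice. All exact tests were 2-sided.

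The 17 alternatives were both count tools, the replicate block, 6 analyses that each left out a library, removal of both libraries numbered 3, quantile normalization, centring on the median, no variance trend, a filter at 50 or none, and a pseudocount of 0.5 or 5.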

Additional observations from a re-analysis of the deposited data

How the results depend on the processing

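Tlr1, Tlr2, Tlr4, Tlr6, Tlr13 and Cd14 kept their direction and passed in all 17 alternatives, and Tlr3 and Tlr8 kept their direction and passed in none. Tlr7 reached -0.25 under quantile normalization (adjusted p = 0.0105) and had 0.034 without both libraries numbered 3. Tlr9 no longer passed at 1.86 under quantile normalization, at 1.83 without a variance trend, at 1.85 with DESeq2, or in 4 of the 6 analyses that left out a library, which ranged over 1.31 to 2.29. A mean of at least 50 gave no value for Tlr9, Tlr5, Tlr11 or Tlr12. The count of 4183 genes over the whole table was 6960 without both libraries numbered 3 and 2940 to 5660 with 1 library left out. The surface share gap was -10.2 percentage points without division by length. The cause of these shifts was not tested. The ratios cannot reach 0.05 with 3 against 3 libraries, so their p-values say nothing about stability.

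Old and young libraries share replicate numbers, and deviations of same-numbered libraries from the mean of their age correlated at -0.38, -0.36 and -0.68. Deviations from a mean of 3 libraries depend on each other, and both libraries numbered 3 stood apart at opposite ends. These values therefore cannot decide whether the numbers pair the libraries. With the replicate number as a block 2643 genes passed, the 6 members that passed did so again, and Tlr9 did not (1.83, adjusted p = 0.0999). With the block the kinase and ligase list had 1 gene higher and none lower, the chaperone and trafficking list 6 higher and none lower, the adaptors 1 higher, and the macrophage markers 3 higher and 2 lower. Depth limits Tlr9, Tlr5, Tlr11 and Tlr12, which had 18 reads or fewer in every library.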

Other observations

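Markers of other peritoneal cells gave the following normalized counts, summed per library. Beside the counts of markers higher or lower, 17.9% of all tested genes were higher and 17.6% lower. Neutrophil markers summed to 7567 to 9534 in old and 431 to 557 in young libraries, nearly all of it Mmp8, with a mean of 8169 in old and 285 in young libraries. Of that list 5 of 11 genes were analysed, and Camp, Ltf and Cxcr2 averaged below 1 in both ages. Monocyte and small peritoneal macrophage markers summed to 2917 to 3522 in old and 2295 to 2628 in young libraries (6 of 8 tested higher, 1 lower). Large peritoneal macrophage markers summed to 10323 to 11692 in old and 9398 to 10556 in young libraries. Most of this sum was Cd93, with a mean of 10028 in old and 9123 in young libraries, which did not pass. Of 9 tested, 3 were higher, 5 without old replicate 3, 2 of 8 without old replicate 2 and 6 without both libraries numbered 3. Gata6 of that list averaged 9.99 in old and 14.9 in young libraries. It was lower in each old library but did not pass (limma adjusted p = 0.263). Plasmacytoid dendritic cell markers, of which Irf8 was the most abundant, summed to 2665 to 2887 in old and 4131 to 4239 in young libraries, with 2 of 6 tested higher (Ly6d by 3.93 and Spib by 3.08) and 3 lower. Macrophages also express Irf8 and Bst2. Dendritic cell markers summed to 136 to 182 in old and 90.4 to 103 in young libraries. T and NK cell markers summed to 81.3 to 115 in old and 8.45 to 12.3 in young libraries. Eosinophil markers summed to 144 to 189.8 in old and 127 to 148 in young libraries. Most of this was Alox15, also on the large macrophage list, with a mean of 121 in old and 124 in young libraries. Of the eosinophil list 4 of 8 genes were analysed, without Epx, Prg2, Ear1 and Ear2. Mesothelial and fibroblast markers summed to 684.6 to 771 in old and 662 to 804 in young libraries. The part of all these cells in the receptor results was not tested.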
